A study of Mus musculus with 9 samples.

Results

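The genes described here are 44 genes of the mitotic spindle and its checkpoint, taken by gene symbol from a table of 24342 measured genes. All 44 were found in the table, all are annotated as protein coding, and they lie on 16 chromosomes. They were listed by name as mitotic genes, with earlier results of these data known. The libraries came from cell lines of mammary tumours of FVB/N mice that carry MMTV-neu, a transgene in which a mammary tumour virus promoter drives the neu (Erbb2) oncogene in mammary epithelium, so the oncogene is shared by wild type and knockout alike. There were 9 libraries of total RNA from attached cultures; the medium held hydrocortisone, EGF, insulin and serum. The Jak1 wild-type libraries were lines 45555, 47298, 45566B, 33373 and 33377, and the Jak1 knockout libraries were lines 45555, 47298, 45566B and 46295. In the 3 lines present in both states (45555, 47298 and 45566B), the titles name the knockout library Cre, and these lines were treated with puromycin in both states. JAK1 is the kinase that carries cytokine signals from interferon and gp130 receptors to STAT factors. Each line and state is 1 library, so p-values measure only the spread between these libraries. The sources used here do not say whether a line is 1 clone.

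Mitosis is driven by the kinase CDK1 with its cyclin partners. They start spindle assembly, and the chromosomes attach to spindle microtubules through kinetochores. Unattached kinetochores send the spindle checkpoint signal, which holds back the anaphase-promoting complex. Once the signal stops, that complex marks cyclin B and securin for destruction, sister chromatids part and the cell divides. Most of these genes are transcribed late in the cell cycle. A repressor complex (DREAM) holds them off in resting cells, and FOXM1 and B-MYB, together with the MuvB core, activate them in dividing cells. Their promoters often carry a CCAAT box, bound by NF-Y, and a cell cycle homology region, with letters such as TTTGAA or TTTAAA, close to the start site. In tumours the same genes are the usual RNA measure of proliferation.

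Promoter stretches of members from different steps of mitosis are shown because these letters, which the choice of members did not use, are shared by most of them. RefSeq windows (build GRCm38.p6, 250 bases before to 50 after the start) were available for 37 of the 44 members, 4 of them with 2 windows. The motifs searched on both strands were the CCAAT box, then TTTGAA, and finally TTTAAA, which reads the same on both strands. On the opposite strand the first is read as ATTGG, and the second appears as TTCAAA. A base could belong to more than 1 match. Each sequence below runs 5′ to 3′ along the gene, with 110 bases before and 20 after the start, and capitals mark these motifs.
Ccnb2, cyclin B2, chr9:70421535-70421664, minus strand: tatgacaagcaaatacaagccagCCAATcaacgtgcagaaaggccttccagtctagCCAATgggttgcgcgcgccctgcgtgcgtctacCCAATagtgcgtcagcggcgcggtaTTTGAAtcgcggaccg
Ccnb1, cyclin B1, chr13:100786467-100786596, minus strand: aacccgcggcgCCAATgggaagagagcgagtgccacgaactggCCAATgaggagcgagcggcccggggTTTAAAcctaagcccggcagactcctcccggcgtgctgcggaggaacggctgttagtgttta
Cdk1, the mitotic kinase, chr10:69352893-69353022, minus strand: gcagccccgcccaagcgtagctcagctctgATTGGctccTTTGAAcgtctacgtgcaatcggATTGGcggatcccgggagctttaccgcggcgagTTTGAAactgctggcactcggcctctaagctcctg
Ttk, the checkpoint kinase MPS1, chr9:83834579-83834708, plus strand: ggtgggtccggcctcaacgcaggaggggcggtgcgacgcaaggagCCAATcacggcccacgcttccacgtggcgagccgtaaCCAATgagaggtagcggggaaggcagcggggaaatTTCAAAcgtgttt
Cdc20, activator of the anaphase-promoting complex, chr4:118437324-118437453, minus strand: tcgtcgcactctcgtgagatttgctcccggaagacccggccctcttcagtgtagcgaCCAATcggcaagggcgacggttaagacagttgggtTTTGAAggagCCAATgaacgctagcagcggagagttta
Kif11, the kinesin that pushes spindle poles apart, chr19:37376272-37376401, plus strand: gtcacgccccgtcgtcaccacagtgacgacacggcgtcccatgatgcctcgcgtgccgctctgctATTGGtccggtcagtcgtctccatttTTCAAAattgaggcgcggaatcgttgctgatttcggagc
Cdca8, the passenger complex subunit borealin, chr4:124936898-124937027, minus strand: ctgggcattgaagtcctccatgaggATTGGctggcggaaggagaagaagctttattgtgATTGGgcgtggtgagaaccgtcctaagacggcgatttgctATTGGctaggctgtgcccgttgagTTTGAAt
Prc1, the bundler of midzone microtubules, chr7:80294341-80294470, plus strand: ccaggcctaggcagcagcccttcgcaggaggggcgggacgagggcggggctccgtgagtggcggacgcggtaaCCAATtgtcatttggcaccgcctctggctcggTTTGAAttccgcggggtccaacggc
Mad2l1, the checkpoint protein MAD2, shown as 1 of 4 members with no match, chr6:66535111-66535240, plus strand: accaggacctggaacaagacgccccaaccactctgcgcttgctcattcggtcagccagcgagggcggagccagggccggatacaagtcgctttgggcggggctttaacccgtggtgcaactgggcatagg

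The windows of a gene with 2 of them could overlap. TTTGAA was found in 31 of the 41 member windows (75.6%), against 17.9% of all 32851 windows of the same length. CCAAT was found in 30 of the 41 (73.2%, against 37.4% of all windows), and both together in 25 (61.0%, against 6.95%). TTTAAA was in 9 (21.95%, against 13.2%). Counted once where windows overlap, there were 34 TTTGAA sites, of which 26 began within 50 bases of a start site. The 4 members with none of these letters in the window were Mad2l1, Nuf2, Nusap1 and Pttg1. These are letter matches and not measured binding sites. Members with TTTGAA (27 genes) and with a window but without it (10 genes) had median log2 fold changes, knockout against wild type over the 3 lines, of 0.61 and 0.63.

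The whole table gave the following frame. The unit is FPKM, a fragment number divided by transcript length and library size, so that levels of different genes can be compared. Summed FPKM per library ranged from 567403 to 721751. The absolute number of fragments is unknown, and relative depth recovered from the steps between low values was 0.416 to 0.771 of that of 45566B wild type in the other 8 libraries. Jak1 itself, read over the whole gene, stood at 86.7 FPKM without and 74.4 with the knockout in 45555, 63.1 and 27.5 in 47298, and 16.1 and 14.2 in 45566B, which checks the labels only weakly. It stood at 19.4 FPKM in wild type 33373, 54.6 in wild type 33377 and 23.0 in knockout 46295. The 46295 value lay above those of wild types 45566B and 33373, so the Jak1 level does not check that label. Luminal epithelial markers summed to between 2625 and 3164 FPKM in both 45566B libraries, 33373 and 46295, and to between 7.18 and 415 in the other 5. The defining epithelial gene Epcam was below 1 FPKM in all 4 libraries of 45555 and 47298. Of 10 luminal markers, 1 reached 1 FPKM in each 45555 library, 4 in 47298 wild type and 3 in 47298 knockout. Of 8 immune and 6 endothelial markers, at most 1 and 2 reached 1 FPKM in any library. The highest immune value was Cd68, a macrophage marker, at 106 FPKM in 46295, against at most 17.7 in any other library, and Ptprc and Pecam1 stayed at or below 0.03 and 0.11 FPKM. The columns of 33373 and 33377 were named in another style than the rest, and whether they were processed alike is not known.

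All 44 members were expressed in every library, and the level of the whole set differed widely between lines. The median member was at 10.0 FPKM in 47298 wild type, 13.5 in 33373, 16.4 in 47298 knockout, 25.9 in 45555 wild type and 27.3 in 46295. It was at 33.8 FPKM in 33377, 41.0 in 45566B wild type, 49.3 in 45555 knockout and 53.0 in 45566B knockout. The lowest single value was 3.94 FPKM (Ttk in 47298 wild type) and the highest 178 FPKM (Ube2c in 45566B knockout). Each member had its highest library among 45566B knockout (24 members), 45555 knockout (17), 46295 (2) or 45566B wild type (1), and its lowest in 47298 wild type (35 members), 33373 (7) or 47298 knockout (2). The ratio of a member's highest to its lowest library was 2.30 for Bub3 at the least, 8.64 for Cdca8 at the most, and 5.57 at the median. For none of the 44 did all knockout libraries lie above all wild-type libraries, whether over the 9 libraries (0.141% of 12063 tested genes did) or over the 6 of the paired lines (1.49%).

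**Figure D1:**
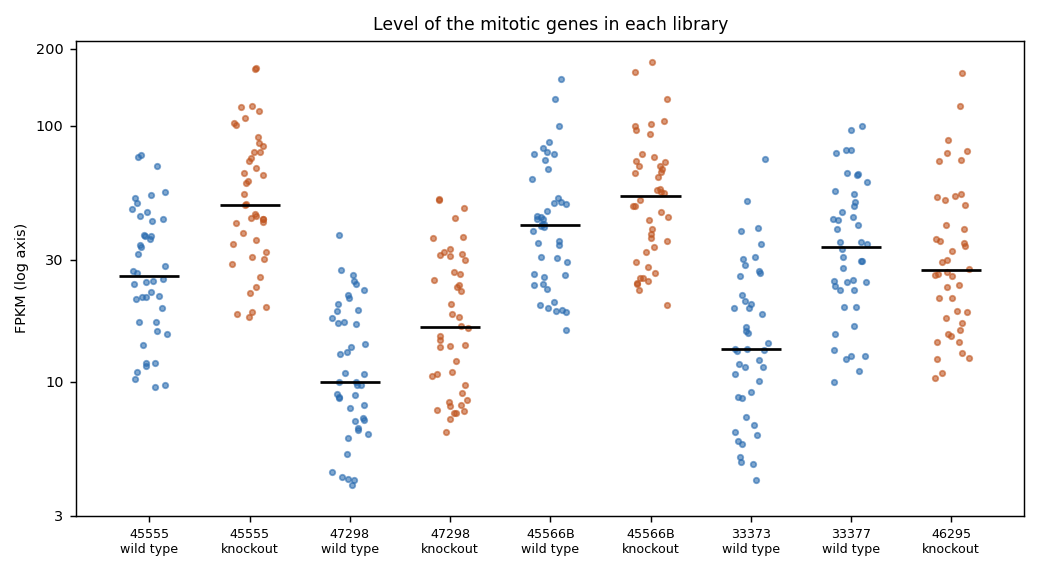
FPKM (log axis) of the 44 mitotic genes in each of the 9 libraries; each point is 1 gene, blue for wild type and orange for knockout, and the black bar is the median. Medians run from 10.0 FPKM in 47298 wild type to 53.0 in 45566B knockout, and in each of the 3 paired lines the knockout bar is the higher.

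Within a line, most mitotic genes were higher in the knockout library. In 45555 all 44 members were higher in the knockout library, at a median of 2.00 times the wild-type level (range 1.41 to 2.68). In 47298, 40 were higher and 4 lower, at a median of 1.65 times (0.822 to 2.93). In 45566B, 43 were higher and 1 lower, at a median of 1.27 times (0.997 to 1.70). Of all tested genes, 45.3% were higher in 45555, 50.5% in 47298 and 51.5% in 45566B. The share of FPKM in short noncoding RNA genes was 8.73% in wild type and 13.3% in knockout of 45555, 11.5% and 14.8% in 47298, and 10.5% and 10.98% in 45566B. The 5 lower values turned to higher ones when those genes were dropped and the rest of each library was scaled to the same summed FPKM. Summed FPKM in wild type and knockout was 680651 and 663902 in 45555, 721751 and 571253 in 47298, and 612638 and 574509 in 45566B. What each of these steps added was not tested. Of the 44 members, 39 were higher in all 3 lines, while 14.3% of all 12063 tested genes were. On the scale log2(FPKM + 1), the median differences of the members, knockout minus wild type, were 0.95, 0.67 and 0.33, and those of all tested genes -0.03, 0.01 and 0.01. Bulk RNA cannot tell more cells in late cycle from more of these RNAs per cell.

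**Figure D2:**
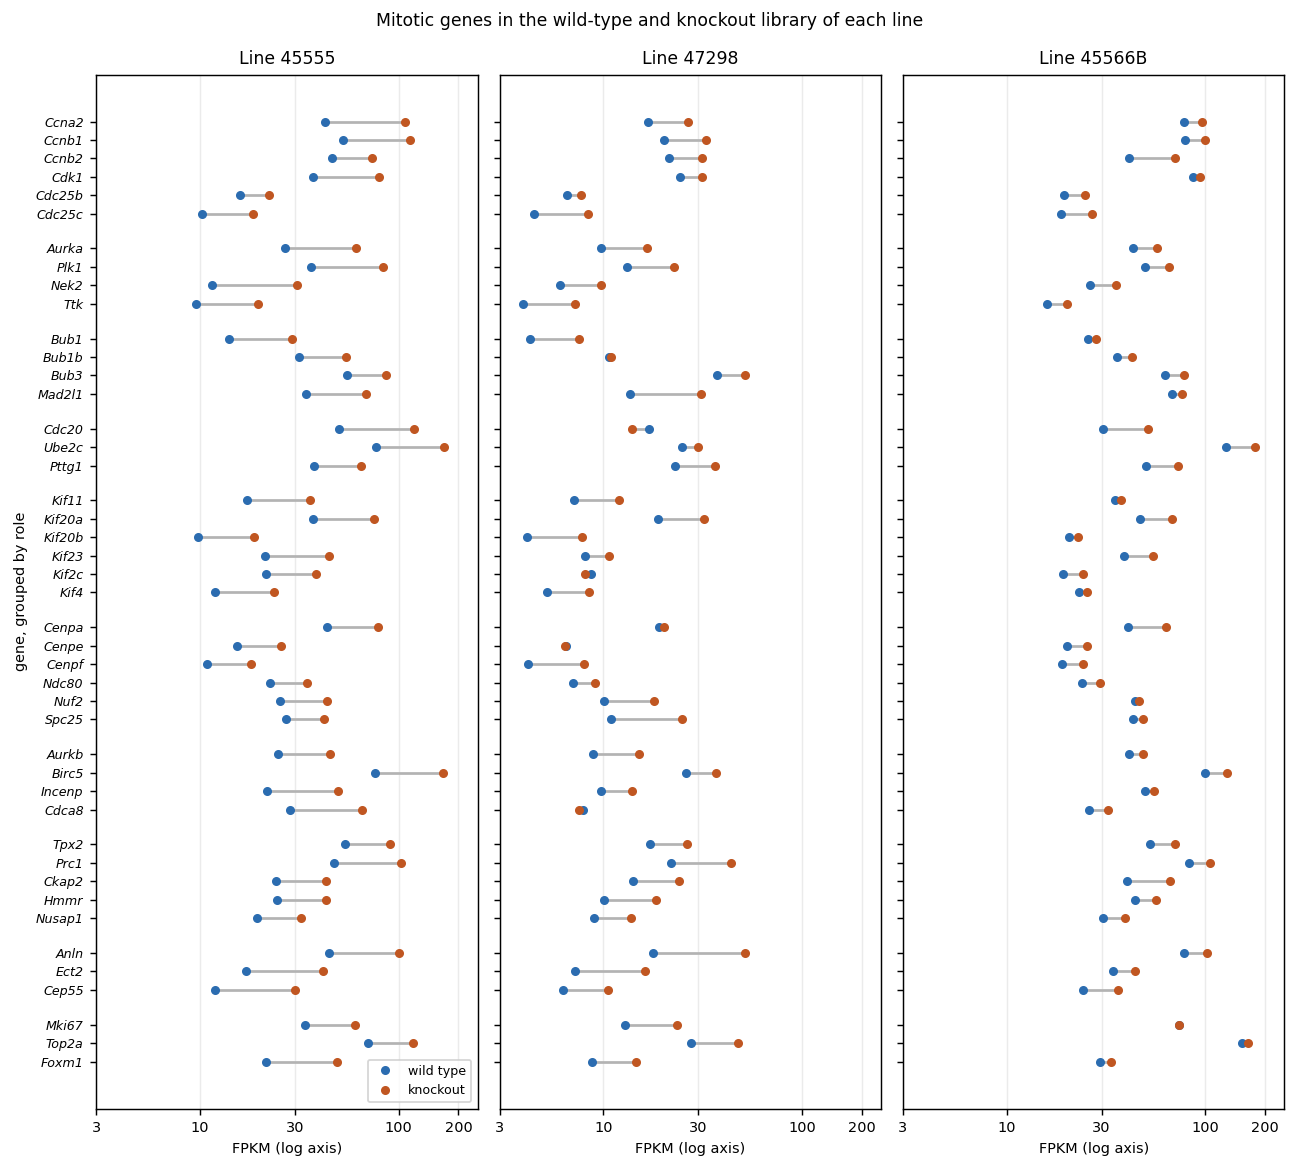
FPKM (log axis) of each member in the wild-type (blue) and knockout (orange) library of lines 45555, 47298 and 45566B, with genes grouped by role from cyclins at the top to Foxm1 at the bottom; a grey bar joins the 2 libraries. For most genes the bar is longest in 45555 and shortest in 45566B, and the orange point lies to the left in 47298 for Cdc20, Kif2c, Cenpe and Cdca8, an order that turns when libraries are rescaled without short noncoding RNA genes.

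The test over the 3 pairs (limma on log2(FPKM + 1) with the line as a block, Benjamini-Hochberg adjustment) called no member and no other gene, so 0% of 12063 genes passed an adjusted p of 0.05. Every member had an adjusted p = 0.762, which was also the smallest over all genes. All 44 fold changes were positive, from 0.33 to 1.01 with a median of 0.62, against a median of -0.01 over all genes, and their standard errors lay between 0.14 and 0.34. At an unadjusted p under 0.05, 26 members were higher and none lower, where 1.51% of all tested genes were higher. The count of 26 became 1 without line 45555, 14 without 47298 and 26 without 45566B, and 0 with the lines not used as a block. The share of all genes higher at that threshold became 0.516%, 0.861%, 2.24% and 0.141% in the same order. Rescaling each library without short noncoding RNA genes moved the median of all genes to 0.16 and that of the members to 0.82, with 42 members and 4.63% of all genes higher at an unadjusted p under 0.05.

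**Figure D3:**
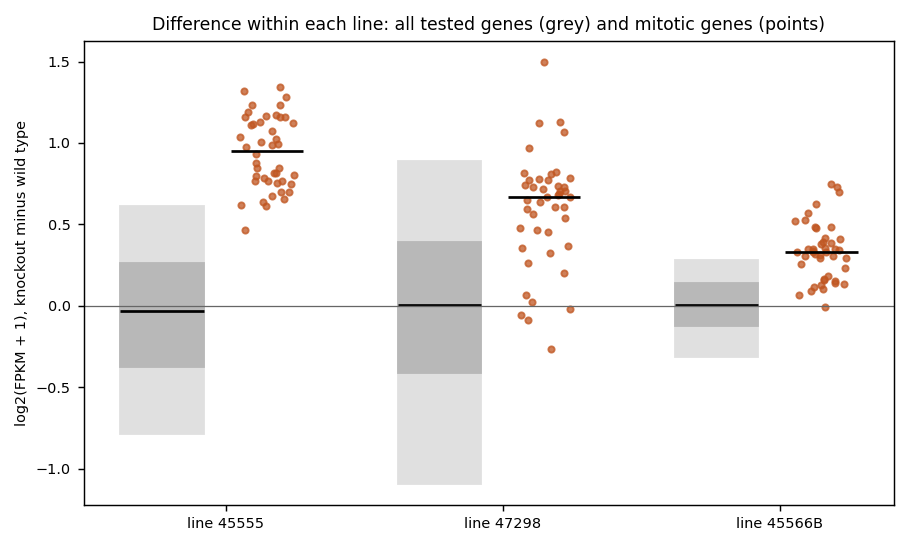
Knockout minus wild type in log2(FPKM + 1) for lines 45555, 47298 and 45566B; orange points are the 44 mitotic genes, the grey boxes span the central 80% (light) and 50% (dark) of 12063 tested genes, and black bars are medians. The member medians of 0.95, 0.67 and 0.33 stand above gene medians close to 0 in each line.

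The genes for entry into mitosis include the cyclins that bind CDK1 and the phosphatases that remove its inhibitory phosphates. All 6 were higher in the 3 knockout libraries, where 14.3% of all tested genes were, with a median log2 fold change of 0.67. At an unadjusted p under 0.05 there were 4, where 1.51% of all tested genes were higher. Over all 44 members the count at that threshold, 26, became 1 without line 45555, where 0.516% of all tested genes were higher. Ccnb2, cyclin B2, stood at 46.0 FPKM in 45555 wild type and 73.1 in its knockout, 21.3 and 31.5 in 47298, and 41.2 and 69.9 in 45566B. The other libraries held 26.6 FPKM in 33373, 54.4 in 33377 and 73.6 in 46295. The 3 pairs gave similar differences for this gene, and limma gave a log2 fold change of 0.65 with SE 0.15 and unadjusted p = 0.0105. Cdc25c, the phosphatase that activates cyclin B and CDK1, stood at 10.2 and 18.4, 4.45 and 8.37, and 18.8 and 26.7 FPKM in the same order of lines and states (log2 fold change 0.68, SE 0.16, unadjusted p = 0.0123). Neither gene's wild-type and knockout libraries separate across lines, but each pair points the same way. Cdk1 was at 37.2 and 79.4 FPKM in 45555 and at 86.3 and 93.4 in 45566B, so its differences ran from 1.07 to 0.11 (0.35 in 47298). Ccna2, cyclin A2, and Ccnb1, cyclin B1, showed the same falling order of difference, 1.32, 0.64 and 0.30 and 1.12, 0.69 and 0.33 for 45555, 47298 and 45566B. Cdc25b had the smallest fold change of all members, 0.33.

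The mitotic kinases were higher in every pair, 4 of 4, where 14.3% of all tested genes were, with a median of 0.77. Each had an unadjusted p under 0.05, where 1.51% of all tested genes were higher. Plk1, which drives centrosome maturation and many later steps, stood at 36.0 FPKM in 45555 wild type and 83.4 in its knockout, 13.1 and 22.7 in 47298, and 49.6 and 65.4 in 45566B. It stood at 21.9 FPKM in 33373, 55.8 in 33377 and 32.4 in 46295. Wild-type and knockout ranges overlapped widely, and each knockout was above its own line's wild type (log2 fold change 0.77, SE 0.21, unadjusted p = 0.0206). Aurka, the spindle pole kinase, Nek2, which splits centrosomes, and Ttk had differences between 0.97 and 1.35 in 45555, 0.61 and 0.73 in 47298, and 0.31 and 0.42 in 45566B.

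Among the checkpoint genes, Bub1 and Bub1b (BUBR1) encode kinase-related proteins at the kinetochore, Bub3 carries them there, and MAD2 is among the parts that inhibit CDC20. All 4 were higher in the knockout library of each pair, where 14.3% of all tested genes were, with a median of 0.54. At an unadjusted p under 0.05 there were 2, where 1.51% of all tested genes were higher. Mad2l1 was at 34.2 and 68.7 FPKM in 45555, 13.7 and 30.9 in 47298 and 67.7 and 75.9 in 45566B. The knockout level was 2.01 and 2.26 times the wild-type level in the first pairs of libraries and 1.12 times in 45566B. Bub1b barely differed in 47298, at 10.7 and 10.9 FPKM, though 45555 held 31.5 and 54.3. Bub3, which also works outside mitosis, had the narrowest fold range of all members, from 37.4 to 86.2 FPKM. Bub1 differed by 1.01, 0.70 and 0.13 in 45555, 47298 and 45566B.

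Of the 3 anaphase genes, 2 were higher in the knockout library of every pair as deposited, where 14.3% of all tested genes were. Pttg1, securin, the inhibitor of separase, was at 37.4 and 64.3 FPKM in 45555, 22.9 and 36.5 in 47298, and 50.3 and 72.6 in 45566B (log2 fold change 0.65, SE 0.15, unadjusted p = 0.0112). Cdc20 was at 50.1 and 119 FPKM in 45555 and at 30.6 and 51.4 in 45566B, but at 17.0 and 14.0 in 47298. The 47298 difference of -0.27 was the lowest of any member in any pair, and it turned positive, though below the median of all genes, on rescaling without short noncoding RNA genes. Ube2c, the ubiquitin-conjugating enzyme of the anaphase-promoting complex, was higher in all 3 lines, with differences of 1.12, 0.26 and 0.48.

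Of the 6 kinesins, 5 were higher in all 3 knockout libraries, where 14.3% of all tested genes were. An unadjusted p under 0.05 was reached by 3, where 1.51% of all tested genes were higher. Kif20a, a motor of the central spindle, was at 37.2 and 74.96 FPKM in 45555, 18.9 and 32.1 in 47298, and 46.6 and 67.7 in 45566B (log2 fold change 0.75, SE 0.17, unadjusted p = 0.0102). Kif11, Kif20b, Kif23 and Kif4 had fold changes between 0.56 and 0.63. Kif2c, a microtubule depolymerase at centromeres, was at 21.4 and 38.2 FPKM in 45555 and at 8.67 and 8.11 in 47298, an order that the same rescaling turned.

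The 6 centromere and kinetochore genes differed by 0.61 to 0.85 in 45555. At an unadjusted p under 0.05 there was 1 of them, Cenpf, where 1.51% of all tested genes were higher. Ndc80, Nuf2 and Spc25 encode 3 subunits of the NDC80 complex, which holds microtubules, and in 47298 they differed by 0.32, 0.78 and 1.13. Cenpf, a large kinetochore protein, had differences of 0.68, 0.81 and 0.34 in the 3 lines. Cenpa, the centromeric histone, was nearly level in 47298 (19.1 and 20.1 FPKM), as was Cenpe, a kinetochore motor (6.48 and 6.38), while both were higher in the other knockouts. The order of the Cenpe values in 47298 turned on rescaling. In the chromosomal passenger complex, Aurkb, its kinase, Birc5 (survivin) and Incenp were higher in all 3 knockouts, where 14.3% of all tested genes were. Aurkb and Birc5 had an unadjusted p under 0.05. Birc5 was among the most abundant members, at 75.6 and 167 FPKM in 45555, 26.2 and 36.9 in 47298 and 99.7 and 128 in 45566B. Cdca8 was at 28.4 and 65.2 FPKM in 45555 and at 26.1 and 32.2 in 45566B, but at 7.90 and 7.55 in 47298, again an order that rescaling turned.

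All 5 spindle-associated proteins and all 3 cytokinesis genes were higher in the knockout of all 3 lines, where 14.3% of all tested genes were. Each of the 8 had an unadjusted p under 0.05, where 1.51% of all tested genes were higher. Ckap2, a microtubule stabiliser, had the smallest unadjusted p of all members (0.00559), with 3 differences close to each other at 0.82, 0.73 and 0.70 (log2 fold change 0.75, SE 0.14). Its levels were 24.1 and 43.2 FPKM in 45555, 14.0 and 23.9 in 47298, 40.3 and 66.0 in 45566B, 19.4 in 33373, 23.7 in 33377 and 34.8 in 46295. Anln, the contractile ring scaffold anillin, had the largest fold change, 1.01 (SE 0.27, unadjusted p = 0.0188). It was at 44.6 and 101 FPKM in 45555, 17.7 and 51.8 in 47298, and 77.9 and 102 in 45566B, and its ratio in 47298, 2.93, was the largest of any member in any pair. Ect2, the exchange factor that places the cleavage furrow, came to 0.88 (SE 0.24) and Cep55, needed for the final cut between daughter cells, to 0.84 (SE 0.21). For Prc1 the value was 0.81 (SE 0.22), for Hmmr, which binds hyaluronan and spindle microtubules, 0.65 (SE 0.18), and for Tpx2, the activator of Aurora A, 0.58 (SE 0.16). The unadjusted p of these 5 lay between 0.0150 (Cep55) and 0.0197 (Hmmr). Nusap1 was at 0.54.

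The 3 remaining members are the proliferation antigen Mki67, the chromosome-untangling enzyme Top2a and the transcription factor Foxm1. Mki67 was at 33.6 and 60.1 FPKM in 45555 and 12.9 and 23.6 in 47298, but at 73.5 and 73.3 in 45566B. It was the single member not higher in that line as deposited, and it was higher after rescaling without short noncoding RNA genes. Top2a was at 153 and 163 FPKM in 45566B and at 69.9 and 119 in 45555. Foxm1, which activates many of the other members, had differences of 1.16, 0.67 and 0.19.

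The size of the difference varied between lines, and so did the spread of all genes. The central 80% of tested genes lay between -0.78 and 0.61 in 45555, between -1.09 and 0.89 in 47298, and between -0.31 and 0.28 in 45566B. The members' median of 0.95 in 45555 and 0.33 in 45566B thus lay above that span, and 0.67 in 47298 inside it. The difference was largest in 45555 for 35 of the 44 members, in 47298 for 8 and in 45566B for 1, and smallest in 45566B for 34 and in 47298 for 10. The 45566B difference was set against those of the other 2 pairs in limma over all 12063 genes. This fit has 1 residual degree of freedom, and its single 45566B pair is assumed to vary like the others. The 45566B difference was smaller for 41 members (all but Ccnb2, Cdc20 and Cenpa), with a median of -0.50 against 0.01 over all genes. No member passed, and 0% of genes did (smallest adjusted p among members 0.9995). At an unadjusted p under 0.05 there were 0 members, where 1.13% of all genes were smaller in 45566B. The 3 members with the smallest p in limma were Mad2l1 (-0.89, SE 0.33, unadjusted p = 0.0866), Mki67 (-0.83, SE 0.32, unadjusted p = 0.0961) and Anln (-0.95, SE 0.37, unadjusted p = 0.0968).

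Markers of other cell types also differed within pairs, most in 47298. Fibroblast markers (10 genes) summed to 5636 FPKM in wild type and 356 in knockout of 47298, and luminal markers to 100.1 and 415. In 45555 the fibroblast sums were 5271 and 3992 FPKM and the luminal sums 7.18 and 7.50. Adipocyte markers summed to 1337 and 55.8 FPKM in 47298 and to 555 and 406 in 45555. Their part in the mitotic differences was not tested. In 45566B all 10 fibroblast markers were below 1 FPKM in both libraries and the luminal sums were 3141 and 3154. The direction of a few members rests on the scaling, and rescaling without short noncoding RNA genes also evened out summed FPKM. After rescaling without short noncoding RNA genes, the median of all genes was 0.35 higher in 47298 knockout, and all 44 members were then higher in each line, Cdc20, Kif2c, Cenpe, Cdca8 and Mki67 included. Under that rescaling 52.9% of all genes were higher in 45555, 69.9% in 47298, 66.4% in 45566B and 30.1% in all 3 lines. Cdc20, Kif2c, Cenpe and Cdca8 stayed below the median of all genes in 47298 as deposited, after this rescaling and with median-ratio scaling.

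Other mitotic genes mostly showed the same direction over the pairs. Of 45 further genes of the spindle, kinetochore and mitotic entry, all were tested and all had a positive fold change over the pairs, with a median of 0.54. At an unadjusted p under 0.05, 21 were higher and none lower, where 1.51% of all tested genes were higher. In all 3 lines 34 were higher, where 14.3% of all tested genes were. In 45566B 36 of the 45 were higher, at a median difference of 0.23. The smallest p belonged to Dlgap5, a spindle protein (0.66, SE 0.16), and Cdca2, which guides a phosphatase to anaphase chromatin (0.71, SE 0.17). Of 14 condensin and cohesin genes 13 were positive with a median of 0.32, and in 45566B 8 were higher at a median difference of 0.02. The unadjusted threshold was passed by 1, Cdca5, sororin (0.65, SE 0.24), followed by Smc4 of condensin (0.52, SE 0.21). Genes of the anaphase-promoting complex were divided. Of its 16 genes 7 were higher and 9 lower, with a median of -0.03 and none past an unadjusted p of 0.05, and the smallest p were those of Anapc13 (-0.31, SE 0.17) and Cdc16 (-0.45, SE 0.26). Genes of the DREAM and MuvB complexes and their partners were also divided, 9 of 15 higher at a median of 0.06. The smallest p were those of Mybl2 (B-MYB, 0.84, SE 0.41) and Tfdp1 (0.44, SE 0.22). Mybl2 differed by 1.87 in 45555 and 0.65 in 47298 but was level in 45566B (-0.00094), and Tfdp1 differed by 0.91, 0.34 and 0.06. Among 7 CDK inhibitors 4 were higher and 3 lower, none past an unadjusted p of 0.05. The smallest p were those of Cdkn1c (-1.11, SE 0.64) and Cdkn1b (p27, -0.37, SE 0.24). Cdkn1c was low, at 1.23 and 0.554 FPKM in 45555, 6.12 and 0.0264 in 47298 and 0 in both 45566B libraries. Cdkn1b differed by -0.94 in 45555, -0.13 in 47298 and -0.03 in 45566B. The largest mean difference of the 7 was that of Cdkn2a, -1.38. It came from 47298 alone (-4.15), with 0 in 45555 and in 45566B. The 4 higher means lay between 0.02 (Cdkn2c) and 0.22 (Cdkn2d). The part of these genes in the mitotic differences was not tested.

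Replication genes, expressed earlier in the cycle, were higher in the knockouts of 45555 and 47298 but mostly not in that of 45566B as deposited. Of 36 genes of the replication machinery and nucleotide supply, 36 were higher in knockout in 45555 and 35 in 47298, with median differences of 1.38 and 0.67. In 45566B only 6 of the 36 were higher and the median was -0.09, where 43 of the 44 mitotic members were higher. After rescaling without short noncoding RNA genes 19 of the 36 were higher in 45566B at a median of 0.01, and 6 of 36 stood above the median of all genes in that line, as did all 44 members. Tk1, thymidine kinase, and Uhrf1, which copies DNA methylation, had the smallest p over the pairs, with 0.72 (SE 0.26) and 1.00 (SE 0.38). Uhrf1 was at 56.3 and 58.6 FPKM in 45566B, against 23.1 and 82.1 in 45555. No test of 1 list against the other was made.

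The second set consists of the libraries that the labels assign to 1 table, which put knockouts 45566B and 46295 against wild types 45566B, 33373 and 33377. It shares both 45566B libraries with the pairs. The fit of this set treated them as unrelated samples, so its SE and p-values ignore that they are 1 line. No gene passed (limma, 0% of 11838 genes), and the smallest adjusted p among members was 0.999. The members' median log2 fold change was 0.57, against 0.02 over all genes, and 43 of 44 were positive, Cdc20 (-0.06) being the exception. Cell type markers differed along with them, with 9 of 9 tested luminal markers higher in knockout (median 1.90), 6 of 6 fibroblast markers lower (median -2.67) and 2 of 2 adipocyte markers lower (median -2.15). Cd68 was at 106 FPKM in knockout 46295. The part of these markers in the mitotic differences was not tested. In 5 members both knockout libraries lay above all 3 wild types, against 7.67% of all tested genes, and in 39 the groups overlapped. These 5 were Ccnb2, Pttg1, Cenpa, Ect2 and Top2a. At an unadjusted p under 0.05 there was 1 member, Pttg1, where 0.49% of all genes were higher. It was at 50.3, 39.0 and 50.3 FPKM in wild types 45566B, 33373 and 33377 and at 72.6 and 80.0 in knockouts 45566B and 46295, a log2 fold change in limma of 0.71 (SE 0.23, unadjusted p = 0.0286). Next in limma came Ccnb2 (0.86, SE 0.35, unadjusted p = 0.0576), Cenpa (0.82, SE 0.43), Ckap2 (0.83, SE 0.44) and Ect2 (0.66, SE 0.39).

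That difference varied with the libraries that entered. Without 33373, where the median member was at 13.5 FPKM, the median fold change was 0.14, with 33 members positive. Without knockout 45566B it was 0.16, without wild type 45566B 0.87, without 33377 0.72 and without 46295 0.92. Without both 33373 and 33377 it was -0.092, with 18 of 44 positive. The median member in 46295, 27.3 FPKM, lay between the wild types 33373 and 33377. The labels place 33373 and 33377 only as wild type and 46295 only as knockout, so line and genotype cannot be told apart for them.

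Once the common level of a library is taken off, the members differed in how far they departed from it. Whether other genes depart more or less was not tested. After the mean of each gene and of each library was subtracted from log2 FPKM, the remaining standard deviation over the 9 libraries had a median of 0.26 per gene and was lowest for Ttk (0.13). It was highest for Cdc20 (0.72), Cdca8 (0.56) and Bub3 (0.49), the member with the narrowest fold range of levels. Cdc20 departed from the common pattern by 0.62 and 0.91 in 45555 wild type and knockout, 0.34 in 47298 wild type and 0.97 in 33377. The departures were -0.58 in 47298 knockout, -0.70 and -0.30 in 45566B wild type and knockout, -0.30 in 33373 and -0.96 in 46295. Cdca8 and Kif2c (standard deviation 0.43) were likewise highest in 33377, positive in both 45555 libraries, and negative in 47298 knockout, both 45566B libraries, 33373 and 46295. In 47298 wild type they stood at -0.06 and 0.41. These 3 genes were singled out after their values were seen.

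**Figure D4:**
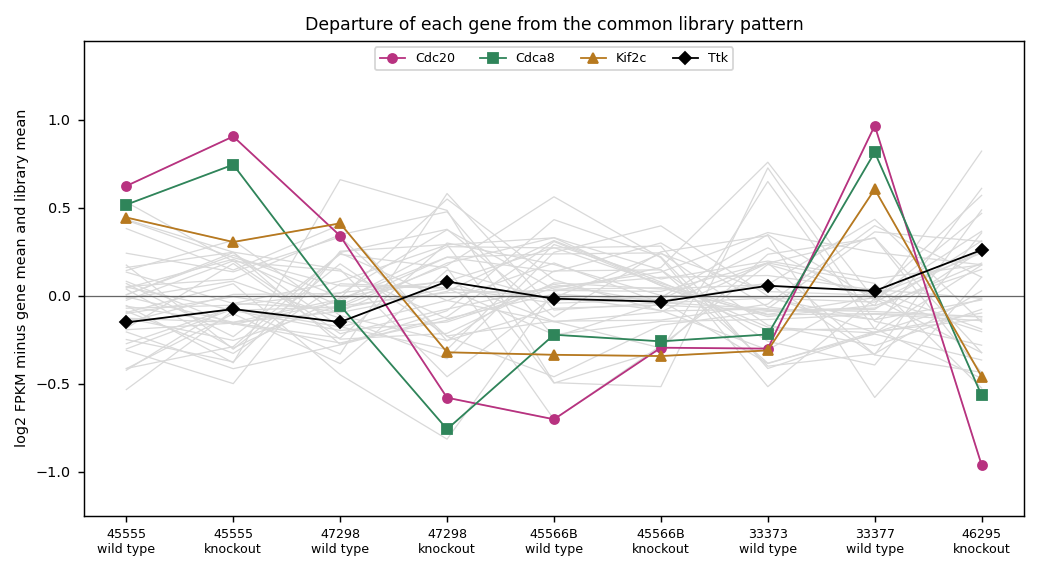
Log2 FPKM of each of the 44 genes after subtraction of the gene's mean over the 9 libraries and of each library's mean over the genes; grey lines are all genes, coloured lines Cdc20, Cdca8, Kif2c and Ttk, and lines only join the values of 1 gene. Ttk stays near 0, while Cdc20 runs from 0.97 in 33377 to -0.96 in 46295.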

How the data were processed

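Transcript levels were measured by RNA sequencing in 9 libraries. The deposited values are FPKM per gene symbol, for which the submitters' processing notes list TopHat2 2.1, Cufflinks 2.2, Cuffnorm, cutadapt and mm10 as the authors' tools and build. Annotation, scaling option and strand setting: not given in the sources used here. One table held all 9 libraries, and a smaller table held 4 of them with identical values. Of 24346 rows, 4 with repeated names were left out. Each comparison kept genes whose mean reached 1 FPKM in its libraries and fitted them together in limma 3.58.1 (R 4.3.3) after log2(FPKM + 1), a scale that understates changes of low genes, two-sided, with variances moderated along the mean and Benjamini-Hochberg adjustment at 0.05. FPKM are not counts, so no count test was used. Depth was read from the most frequent ratio of values under 0.5 FPKM. For the 3 pairs and the difference between lines, libraries were paired by the line their labels share. Deviations of paired libraries correlated at 0.700 (45555), 0.399 (47298) and 0.804 (45566B). The fit of the second set held no pairing, so both 45566B libraries entered it as separate samples. Promoter windows came from RefSeq (GRCm38.p6) and gene types from GENCODE. Alternatives were the pseudocount, the filter, 2 scalings, no block and left-out libraries. Rescaling without short noncoding RNA genes also brought each library to the same summed FPKM. Fits were tested on simulated data. Genes with full statistics were the 12 members with the smallest p over the pairs, 5 in the second set, 3 for the difference between lines and 2 per other list. Members and lists were chosen with earlier results of these data known.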

Additional observations from a re-analysis of the deposited data

Results flagged for a closer look

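Within the wild-type and the knockout libraries, each member was examined for a single library far from the others, 88 sets of libraries in all. Chance alone marks about 1 in 20 such sets. Only Ccnb2 in the knockout libraries stood out, at 31.5 FPKM in 47298 against 73.1 in 45555, 69.9 in 45566B and 73.6 in 46295. The median member was also lower in 47298 knockout (16.4 FPKM) than in the other 3 knockout libraries.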

How the results depend on the processing

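No alternative gave a member an adjusted p under 0.05 in any of the 3 comparisons, while 6 other genes passed over the pairs without line 47298 and 4 in the second set with a pseudocount of 0.1. Over the 3 pairs, the median fold change of the members kept its sign and moved by less than the spread between pairs, and all 12 members given with full statistics stayed positive under each of 8 alternatives. The number of members higher at an unadjusted p under 0.05, 26, became 42 after rescaling without short noncoding RNA genes and 0 with no replicate block, that is without the pairing. It lay between 1 and 26 when 1 line was left out. The share of all genes higher at that threshold, 1.51% in the main fit, became 4.63%, 0.141% and between 0.516% and 2.24%, in the same order. The count of 39 members higher in all 3 lines was 44 after the same rescaling, where all genes higher in all 3 lines went from 14.3% to 30.1%. With a line left out it was 39 to 43, but only 2 lines then had to be higher, so it could not fall. The share of all genes was not taken for those counts. These alternatives were chosen after seeing the data. In the second set, the median was -0.092 without both 33373 and 33377. The count of 1 there, where 0.49% of all genes were higher, became 2 after the rescaling, where 0.66% were. It was 5 without wild type 45566B (2.65% of all genes), 0 without 33373 (0.247%) and 2 without 33377 (0.291%). Fits that left 1 library in a group are given without a count. Where leaving out a library left 1 knockout or 1 wild type, that library was assumed to vary like the others. Precision is limited by 1 library per line and state, and absolute depth is unknown. With median-ratio scaling 5 members, in place of 3, had a larger difference in 45566B than in the other lines.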

Other observations

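Ratios of members within a library do not depend on its scaling. Cdca8 over Aurkb, 2 subunits of the chromosomal passenger complex, was 1.15 and 1.44 in wild type and knockout of 45555, 0.892 and 0.501 in 47298, and 0.631 and 0.661 in 45566B. It was 0.695 in 33373, 1.05 in 33377 and 0.420 in 46295. Cdc20 over Plk1 was 1.39, 1.43, 1.30 and 1.41 in both 45555 libraries, 47298 wild type and 33377, and between 0.581 and 0.786 in the other 5. Epcam was below 3 FPKM in the 4 libraries with the high ratios, and also in 47298 knockout (0.581 FPKM), where Cdc20 over Plk1 was 0.617. The relation was noticed in these data and was not tested.

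Cyclin B1 over cyclin B2 (Ccnb1 over Ccnb2) was lowest in 46295, at 0.540, and between 0.941 and 1.92 in the other 8 libraries.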
